A study of Mus musculus with 21 samples.

Results

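UNC1999 was set against its vehicle DMSO in mouse acute myeloid leukaemia cells transformed by NUP98-NSD1. The 3 UNC1999 libraries and the 3 DMSO libraries were taken by the labels of the inhibitor table, which makes 6 of the 21 libraries of the series, and every gene of that table was read. The cells were an established line driven by flag-tagged NUP98-NSD1, which joins a nuclear pore protein to a methyltransferase of histone H3. They grew with serum and stem cell factor supplied as supernatant of secreting hamster ovary cells, and both groups carried the fusion and no other stated alteration. UNC1999 was given at 3 µM for 4 days, and so was JQEZ5, a second inhibitor. The 3 JQEZ5 libraries enter a direct comparison, and also the filter, the estimate of spread behind every p-value and the quintiles of level. The model is a single line in vitro, and no label says that replicates came from cultures kept apart. The p-values thus rest on the spread between these libraries, which could be technical.

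UNC1999 competes with the methyl donor in EZH2 and EZH1, the alternative catalytic subunits of polycomb repressive complex 2 (PRC2). PRC2 methylates histone H3 at lysine 27, a mark of silenced chromatin that holds developmental and lineage genes off. Myeloid leukaemias of the NUP98 fusion type keep a progenitor state with high HOXA genes, and their normal counterparts mature into granulocytes or into monocytes and macrophages, cells rich in lysosomes that engulf debris, handle its lipid and iron and secrete cytokines.

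Total counts ran from 13581901 to 15307635 reads per DMSO library and from 12812646 to 17320802 per UNC1999 library. UNC1999 replicate 3 stood apart from its group: it was the shallowest, had 294 genes at 0 against 108 and 129, and correlated with the others at a Pearson r of 0.9942 and 0.9948, where those correlated at 0.9974 (DMSO libraries, 0.9975 to 0.9979; across groups, 0.9767 to 0.9805). Without it 9 of 376 named genes lost their call, among them Cst7 and Kdm6a, described here (limma adjusted p = 0.0731 and 0.127). The labelled myeloid identity was met in all 6 libraries, with the integrin Itgam at 15004 to 20143 normalised counts, the adaptor Tyrobp at 7426 to 8633 and the myeloid transcription factor Spi1 at 3782 to 4072. Levels are read counts scaled for depth, recovered from the deposited log2 values; log2 changes, each given ± its SE with 3 libraries a group, are on the deposited variance-stabilised scale, which understates changes of low genes.

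Of 14178 genes, 10694 passed the filter (59.0 normalised counts in 3 of the 9 libraries of the fit) and were tested with limma at a Benjamini-Hochberg adjusted p under 0.05. Genes such as Ctsk, S100a9, Mmp13, Il1a, Il10 and Serpinb2 were under it in every DMSO library and passed through treated libraries alone. That these genes were tested thus depended on their rise. Rufy4, which fell, passed in the DMSO libraries and was under the filter in every UNC1999 library. UNC1999 moved 47.9% of the tested genes, 2552 higher (23.9%) and 2566 lower (24%), with a median log2 change over all tested genes of -0.01. The counts of each list below are to be set beside these shares of all tested genes. The 2 directions differed in size. The median called rise was 1.28-fold and the median called fall 1.22-fold, but 266 genes rose at least 2-fold (2.49% of those tested) against 27 that fell as far (0.252%), and 41 against 2 passed 5-fold. The counts past 2-fold were 449 and 133 with no filter on low values and 155 and 5 with a filter at 2 log2 units. The 3 UNC1999 libraries lay wholly above the 3 DMSO libraries for 26.9% of tested genes and wholly below for 28.1%. Most genes named below, other than anchor genes set for each list whatever their change, were picked among those without overlap. A lack of overlap is thus no further support for them. Without UNC1999 replicate 3, 2503 were called higher and 2579 lower, of which 2320 and 2274 were called the same way with no library left out. With only the DMSO and UNC1999 libraries in the fit, 2468 were called higher and 2475 lower.

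**Figure D1:**
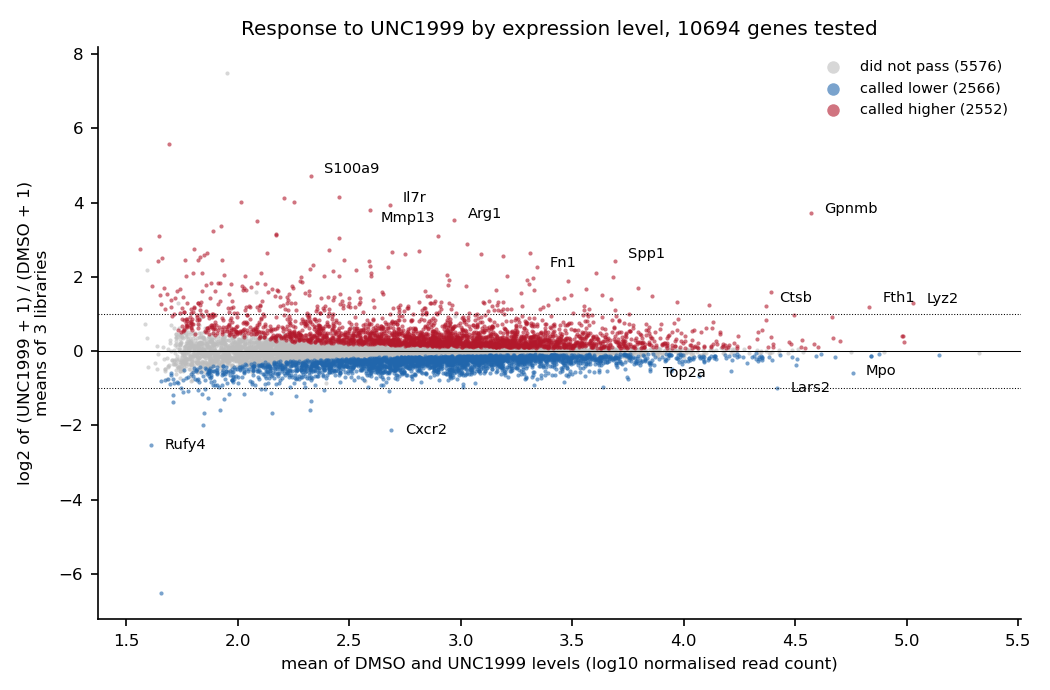
Each point is 1 of 10694 tested genes, placed by the mean of its DMSO and UNC1999 levels (log10 normalised read count) and by the log2 ratio of the group means with 1 count added to each. Red points were called higher, blue lower and grey points did not pass, and the dotted lines mark a 2-fold difference in this ratio. By the ratio of mean levels with no count added, 266 called genes rose at least 2-fold and 27 fell as far.

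The large rises were spread over the whole range of expression, while the large falls were among low genes. Split into quintiles by mean level, 5.56% of the lowest quintile rose at least 2-fold and 1.59% of the highest, and 34 genes of that highest quintile were among the 266. Falls of at least 2-fold made up 1.08% of the lowest quintile (23 genes) and 0.187% of the next (4 genes), and there were none in the upper 3 quintiles. The share of genes called at any size went the other way, from 17.4% higher and 12.9% lower in the lowest quintile to 34% and 30.9% in the highest, where counting error is smallest.

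**Figure D2:**
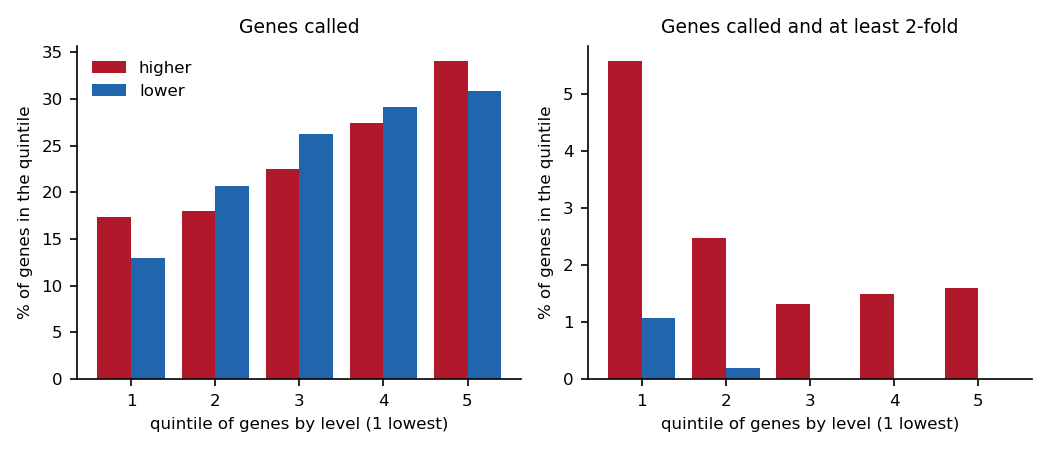
Percentage of tested genes called higher (red) or lower (blue) in each quintile of genes by mean level, at any size on the left and at 2-fold or more on the right. At 2-fold the rises reach every quintile, from 5.56% in the lowest to 1.59% in the highest, and the falls reach 1.08% and 0.187% in the lowest 2 quintiles and 0 above.

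The steepest rise by log2 change was that of Gpnmb, a lysosomal and surface glycoprotein of macrophages and osteoclasts, on chromosome 6 at 49036546 to 49070929 on the plus strand (GRCm38, ENSMUSG00000029816.10). It was at 5144, 5243 and 5278 normalised counts in the DMSO libraries and 69745, 69663 and 67646 in the UNC1999 libraries, a 13.2-fold rise (log2 change 3.67 ± 0.02, limma adjusted p = 2.79e-21). Every UNC1999 library exceeded every DMSO library more than 10-fold, and the spread within each group was small beside that gap. Gpnmb led a list of genes that macrophages use in tissue remodelling and repair, of which 29 were tested, 25 rose and 3 fell, 19 of the rises at least 2-fold. The median log2 change of the list was 0.77. Its falls were small: the protease inhibitor Cst7 (10.4%), the metalloproteinase Mmp19 (12%) and the lectin Mgl2 (19.3%). The call of Cst7 was lost with any DMSO library or UNC1999 replicate 2 or 3 left out (limma adjusted p from 0.0593 to 0.167), and that of Mmp19 without DMSO replicate 1 or UNC1999 replicate 1 (limma adjusted p = 0.0629 and 0.0836).

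Among the other rises of this list were secreted and matrix proteins. Spp1, which encodes osteopontin, an adhesive phosphoprotein, went from 1544, 1495 and 1599 with DMSO to 8337, 8282 and 8109 with UNC1999 (log2 change 2.26 ± 0.03). Fibronectin, Fn1, on chromosome 1 at 71585520 to 71653200 on the minus strand, was at 756, 788 and 722 with DMSO and 3568, 3494 and 3807 with UNC1999 (4.8-fold, log2 change 1.98 ± 0.04). For both genes the groups were far apart and the libraries of each group lay close together. Arg1, the enzyme that splits arginine to ornithine and urea, was at 146, 160.3 and 137 with DMSO and 1795, 1669 and 1711 with UNC1999 (11.7-fold, log2 change 2.51 ± 0.04), and Trem2, a lipid-sensing receptor of phagocytes, rose 2.17-fold (log2 change 0.96 ± 0.04). The collagenase Mmp13 was under the filter in every DMSO library, at 55.3, 43.4 and 57, and was tested through treated libraries alone. It reached 681, 749.9 and 760.2 with UNC1999 (14.1-fold, log2 change 2.07 ± 0.05). The 5 genes passed with a limma adjusted p from 4.92e-17 to 3.19e-11.

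The 15 largest rises also held other receptors and enzymes. Il7r, the receptor chain for interleukin-7, was at 51.3, 55.7 and 66 normalised counts in the DMSO libraries and 846, 906 and 954 in the UNC1999 libraries (15.6-fold, log2 change 2.27 ± 0.05). Irg1, whose enzyme makes itaconate from a citrate cycle intermediate, rose 6.22-fold (log2 change 2.26 ± 0.04), and Plxna1, a semaphorin receptor, 8.61-fold (log2 change 2.18 ± 0.04). Lrp12, a member of the LDL receptor family, rose 6.13-fold (log2 change 2.08 ± 0.04), and the paired inhibitory receptors Lilr4b and Lilrb4a rose 5.87-fold (log2 change 2.11 ± 0.04) and 4.32-fold (log2 change 1.96 ± 0.03). The last pair are close paralogs, so that reads may have been assigned to the wrong one (limma adjusted p from 9.40e-17 to 2.16e-14 for the 6 genes).

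**Figure D3:**
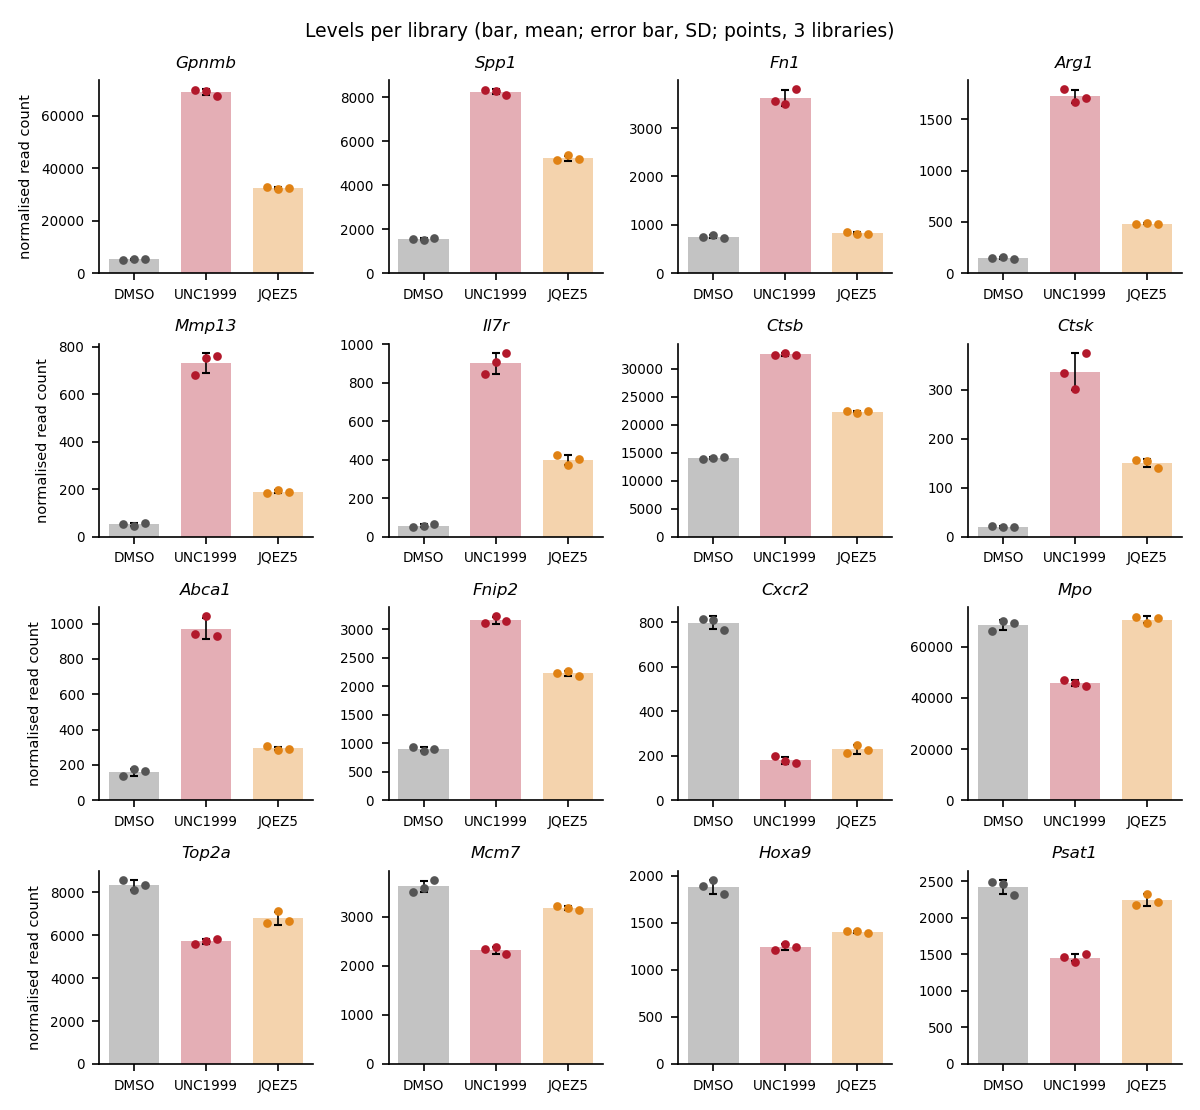
Normalised read counts of 16 genes in the 3 DMSO, 3 UNC1999 and 3 JQEZ5 libraries (points), with the group mean (bar) and SD (error bar); each axis starts at 0. The UNC1999 libraries lie above all DMSO libraries for Gpnmb, Spp1, Fn1, Arg1, Mmp13, Il7r, Ctsb, Ctsk, Abca1 and Fnip2 and below them for Cxcr2, Mpo, Top2a, Mcm7, Hoxa9 and Psat1.

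Markers of monocytes and macrophages rose broadly. Of 37 tested, 31 rose and 2 fell, with a median log2 change of 0.44. In bulk RNA a change in the share of cells of one type and a change in RNA per cell cannot be told apart. The surface receptor Adgre1 (F4/80) was at 862, 835 and 801 normalised counts in the DMSO libraries and 3072, 3123 and 3153 in the UNC1999 libraries (3.74-fold, log2 change 1.67 ± 0.03). Lysozyme, Lyz2, an enzyme that cleaves bacterial walls, was at 62189.9, 60859.5 and 62481 with DMSO and 157715, 152183 and 146302 with UNC1999 (2.46-fold, log2 change 1.29 ± 0.03; its neighbour and near copy Lyz1 may share reads). The libraries of both genes were separated by group with no overlap, a condition for naming most genes here. Csf1r, the receptor for the macrophage growth factor CSF1, rose 1.83-fold (log2 change 0.85 ± 0.03), and its ligand gene Csf1 rose as well, from 64.1, 67.9 and 69.9 with DMSO to 509, 467 and 365 with UNC1999 (6.64-fold, log2 change 1.42 ± 0.07). The endotoxin co-receptor Cd14 rose 2.35-fold (log2 change 1.12 ± 0.03), while Plac8 fell by 18.2% and Pld4 by 15.9% (limma adjusted p from 2.32e-15 to 3.83e-05).

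Receptors for engulfment moved with them. Of 16 tested, 13 rose and 2 fell. The scavenger receptor Msr1, which takes up modified lipoprotein, was at 341, 328 and 345 with DMSO and 1398, 1361 and 1456 with UNC1999 (4.15-fold, log2 change 1.57 ± 0.04). Colec12, a scavenger lectin, rose 2.85-fold (log2 change 1.42 ± 0.03), Stab1 2.56-fold (log2 change 0.81 ± 0.07) and Lrp1, an endocytic receptor for many ligands, 2.15-fold (log2 change 1.05 ± 0.04). The falls were Elmo1, part of the engulfment signalling complex, by 15.7%, and Cd47, the "do not eat me" signal, by 9.77% (limma adjusted p from 2.61e-15 to 0.00297). Of 12 chemoattractant receptors 9 rose and 2 fell, the risers including the complement receptors C3ar1 (3.13-fold, log2 change 1.46 ± 0.04) and C5ar1 (2.09-fold, log2 change 0.81 ± 0.04) and the formyl peptide receptor Fpr1 (1.85-fold, log2 change 0.72 ± 0.04). Cxcr2, which neutrophils use to follow CXC chemokines, on chromosome 1 at 74153989 to 74161246 on the plus strand, went against them. It was at 815, 812 and 763 normalised counts in the DMSO libraries and 198, 178 and 167 in the UNC1999 libraries, a fall of 77.3% (log2 change -1.42 ± 0.05; limma adjusted p = 4.17e-12), the largest fall on the log2 scale among the tested genes.

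The lysosome, the acid compartment where cells break down engulfed and worn-out material, was represented by 4 lists, in each of which more members rose than fell. Of 41 lysosomal hydrolases 34 rose and 3 fell, with a median log2 change of 0.34. The cysteine protease Ctsb was at 13899.8, 14097 and 14168 normalised counts in the DMSO libraries and 32508, 32855 and 32432 in the UNC1999 libraries (2.32-fold, log2 change 1.20 ± 0.02). The aspartic protease Ctsd was at 31891, 32157 and 32218 with DMSO and 61081, 59838 and 60184 with UNC1999 (1.88-fold, log2 change 0.91 ± 0.02). All UNC1999 libraries exceeded all DMSO libraries for both, by a multiple of the spread within groups. Ctsl and Ctss, further cysteine proteases, rose 2.38-fold (log2 change 1.22 ± 0.03) and 2.85-fold (log2 change 1.39 ± 0.03). Ctsk, the collagen-degrading protease of osteoclasts, rose from a low level, at 21.7, 18.9 and 19 with DMSO and 334, 301 and 375 with UNC1999 (17-fold, log2 change 1.62 ± 0.06). The falls were in the sulfatases Arsb (15.3%) and Galns (12.9%) and in Ctsc (7.4%), which activates granule proteases (limma adjusted p from 1.63e-15 to 0.0206). That of Ctsc did not pass without DMSO replicate 1 or 2 or UNC1999 replicate 2 (limma adjusted p = 0.0859, 0.0566 and 0.0553).

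The proton pump that acidifies lysosomes rose in most of its subunits, by less. Of 16 subunits of the vacuolar ATPase 14 rose and none fell (median log2 change 0.23). Atp6v1c1 was at 1943, 2028 and 2050.5 with DMSO and 3213, 3207 and 3296 with UNC1999 (1.61-fold, log2 change 0.63 ± 0.03), the membrane ring subunit Atp6v0c rose 1.41-fold (log2 change 0.48 ± 0.03) and the catalytic subunit Atp6v1a 1.35-fold (log2 change 0.42 ± 0.03). Of 30 lysosomal membrane and transport genes 18 rose and 2 fell, the fallers being Sort1, a sorting receptor, by 12.8% and the transporter Slc15a4 by 12.5%. Cd68, a glycoprotein of the macrophage lysosome, was at 1264, 1304 and 1321 with DMSO and 4745, 4926 and 4652 with UNC1999 (3.68-fold, log2 change 1.72 ± 0.03). The metal transporter Slc11a1 rose 2.33-fold (log2 change 1.08 ± 0.04), the cholesterol exporter Npc1 1.7-fold (log2 change 0.69 ± 0.04) and the structural protein Lamp1 1.14-fold (log2 change 0.19 ± 0.03; limma adjusted p from 1.13e-15 to 0.000737).

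Of 29 genes of autophagy and of mTORC1 control at the lysosomal surface, 14 rose and 3 fell. Fnip2, a partner of folliculin in nutrient sensing, was at 943, 872 and 893 with DMSO and 3108, 3227 and 3139 with UNC1999 (3.5-fold, log2 change 1.59 ± 0.03). The autophagy receptor Sqstm1 rose 1.43-fold (log2 change 0.49 ± 0.03), the small GTPase Rragc 1.44-fold (log2 change 0.48 ± 0.04) and Atg7, which drives conjugation at the autophagosome, 1.43-fold (log2 change 0.45 ± 0.05). The initiating kinase Ulk1 (14.2%), Atg9a (18.3%) and Atg14 (16.3%) fell. Mitf, of the family of transcription factors that bind lysosomal gene promoters, rose from 852, 806 and 935 with DMSO to 1727, 1612 and 1779 with UNC1999 (1.97-fold, log2 change 0.83 ± 0.05), and its relative Tfec fell by 19.4% (limma adjusted p from 5.52e-15 to 0.00657).

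That family recognises the element TCACGTGA, which reads the same on both strands. It was searched in RefSeq promoters of GRCm38.p6, from 250 bases before to 50 after the start of each gene's first listed transcript. It was present in 5 of 24 promoters of the lysosomal membrane and transport list (20.8%), in 1 of 24 of the autophagy list (4.17%) and in 1.01% of all 27025 promoters. All promoters include those of genes not tested here. Pairs of C followed by G, which TCACGTGA contains, were rarer in them (median observed over expected 0.389) than in the membrane and transport list (0.686). The contrast with all promoters may thus be too large. Promoters were found for only 78% of the hydrolases, 68.8% of the pump subunits and 76.2% of all tested genes, under the 80% set as a minimum, so no share is given for these 3 sets. The 250 bases upstream of the start are shown, 5′ to 3′, for the list members with a match whose change was largest: the pump subunit Atp6v1a, the lysosomal calcium channel Mcoln1 and the hydrolase Ctsd. Capitals mark TCACGTGA, which begins 132, 46 and 99 bases before the start. The stretches were picked for holding a match and do not show how common it was in their lists.
Atp6v1a (chr16:44139260-44139509, minus strand): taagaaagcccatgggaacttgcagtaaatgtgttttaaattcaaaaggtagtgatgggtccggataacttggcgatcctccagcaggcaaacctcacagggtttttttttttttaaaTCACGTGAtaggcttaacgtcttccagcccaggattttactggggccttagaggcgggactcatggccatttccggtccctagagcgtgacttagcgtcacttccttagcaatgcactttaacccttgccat
Mcoln1 (chr8:3500269-3500518, plus strand): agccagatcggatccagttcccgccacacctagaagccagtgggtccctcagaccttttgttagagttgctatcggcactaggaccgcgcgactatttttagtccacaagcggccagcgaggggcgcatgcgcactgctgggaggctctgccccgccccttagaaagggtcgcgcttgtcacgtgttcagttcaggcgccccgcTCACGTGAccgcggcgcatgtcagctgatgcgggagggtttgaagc
Ctsd (chr7:142387828-142388077, minus strand): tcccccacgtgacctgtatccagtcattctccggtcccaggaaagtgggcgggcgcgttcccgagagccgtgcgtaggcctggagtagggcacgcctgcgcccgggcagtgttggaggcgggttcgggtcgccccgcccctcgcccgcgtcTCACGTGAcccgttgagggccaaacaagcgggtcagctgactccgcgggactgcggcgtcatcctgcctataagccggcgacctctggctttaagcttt

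Lipid and iron reach macrophages from engulfed cells, and genes that handle them changed in both directions. Of 23 genes of lipid uptake, storage and efflux 15 rose and 5 fell. The cholesterol efflux pump Abca1 was at 135, 175 and 165 with DMSO and 943, 1040.0 and 928 with UNC1999 (6.13-fold, log2 change 1.75 ± 0.06), and its partner Abcg1 rose 3.64-fold (log2 change 0.94 ± 0.06). The HDL receptor Scarb1 fell by 25%. Of 22 cholesterol synthesis genes 14 fell, with Cyp51 down by 32.6% and the regulator Insig1 by 35.6%, while 1, Sqle, rose. Fatty acid synthesis was split, 5 up and 5 down of 15: fatty acid synthase Fasn fell by 38.4% and the elongase Elovl6 by 41.7%, and malic enzyme Me1, a source of NADPH, rose 2.89-fold (log2 change 0.81 ± 0.07). Without DMSO replicate 2 or UNC1999 replicate 1, the count of falls in that list was 3. Of 25 haem and iron genes 14 rose and 3 fell. Fth1, the heavy chain of the iron store ferritin, was at 40077, 41674 and 42229 with DMSO and 99896, 93951 and 87461 with UNC1999 (2.27-fold, log2 change 1.18 ± 0.04), the iron exporter Slc40a1 rose 3.25-fold (log2 change 0.84 ± 0.06), and Alas1, the first enzyme of haem synthesis, fell by 17.3% (limma adjusted p from 6.85e-13 to 0.00015).

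In each of 8 lists of signalling genes more members rose than fell. Of 21 cytokine genes 10 rose and 1, Il16, fell. Il1b, the inflammatory cytokine interleukin-1 beta, was at 373, 385 and 421 with DMSO and 1277, 1321 and 1495 with UNC1999 (3.47-fold, log2 change 1.39 ± 0.05). Its neighbour Il1a and the anti-inflammatory Il10 rose from few reads, Il1a from 13.8, 16.7 and 17 with DMSO to 143, 123 and 68.7 with UNC1999 and Il10 from 7.9, 7.79 and 9.99 with DMSO to 69.8, 79.7 and 92 with UNC1999. Tnf rose 1.55-fold (log2 change 0.43 ± 0.05). The element TGACTCA, bound by AP-1 factors, was present in 6 of 18 cytokine promoters (33.3%, either strand) and in 5.17% of all promoters. Of 28 AP-1, early response and MAPK feedback genes 17 rose and 3 fell, with Atf3 up 2.21-fold (log2 change 0.99 ± 0.04) and Egr1 3.18-fold (log2 change 0.67 ± 0.09), and the receptor signalling inhibitor Spry2 fell by 37.2%. Among 7 chemokines 4 rose and 3 fell, with Cxcl2 up 4.13-fold (log2 change 1.10 ± 0.06), Ccl4 up 2.81-fold (log2 change 1.12 ± 0.05) and Cxcl10 down by 38.3% (limma adjusted p from 4.10e-12 to 0.0021).

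Of 39 cytokine and growth factor receptors 21 rose and 8 fell, with the TNF receptor Tnfrsf1b up 1.78-fold (log2 change 0.82 ± 0.03) and Csf2rb2, a receptor chain for interleukin-3, up 2.48-fold (log2 change 1.12 ± 0.03) (its paralog Csf2rb may share reads). The interleukin-1 decoy receptor Il1r2 was at 95.7, 136 and 106 with DMSO and 27.6, 45 and 9.81 with UNC1999, and Il18rap fell by 35.1%. Of 36 pattern recognition genes 19 rose and 4 fell, with the RNA sensor Tlr13 up 1.77-fold (log2 change 0.73 ± 0.04) and the inflammasome sensor Nlrp3 up 1.49-fold (log2 change 0.49 ± 0.05). Of 11 integrins 8 rose and 2 fell. Itga6 rose 1.68-fold (log2 change 0.70 ± 0.03), while Itgb3 was at 657, 655 and 619.5 with DMSO and 275, 272 and 373 with UNC1999, a fall of 52.4%. Of 15 coagulation genes 12 rose and none fell. Von Willebrand factor, Vwf, was at 239, 272 and 245 with DMSO and 1848, 1889 and 1879.8 with UNC1999 (7.44-fold, log2 change 2.20 ± 0.04). Serpinb2, an inhibitor of plasminogen activators, had 3 reads over the DMSO libraries and 282 over the UNC1999 libraries, a ratio of 94.95 with an exact 95% counting interval of 32.2 to 463. That interval covers the counting error of pooled reads and leaves out the spread between libraries, so it is too narrow for the response. The fold rested on 1 library, since the ratio of mean levels was 90.5 and, without DMSO replicate 2, 195 (limma adjusted p from 1.13e-15 to 2.41e-05).

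**Figure D4:**
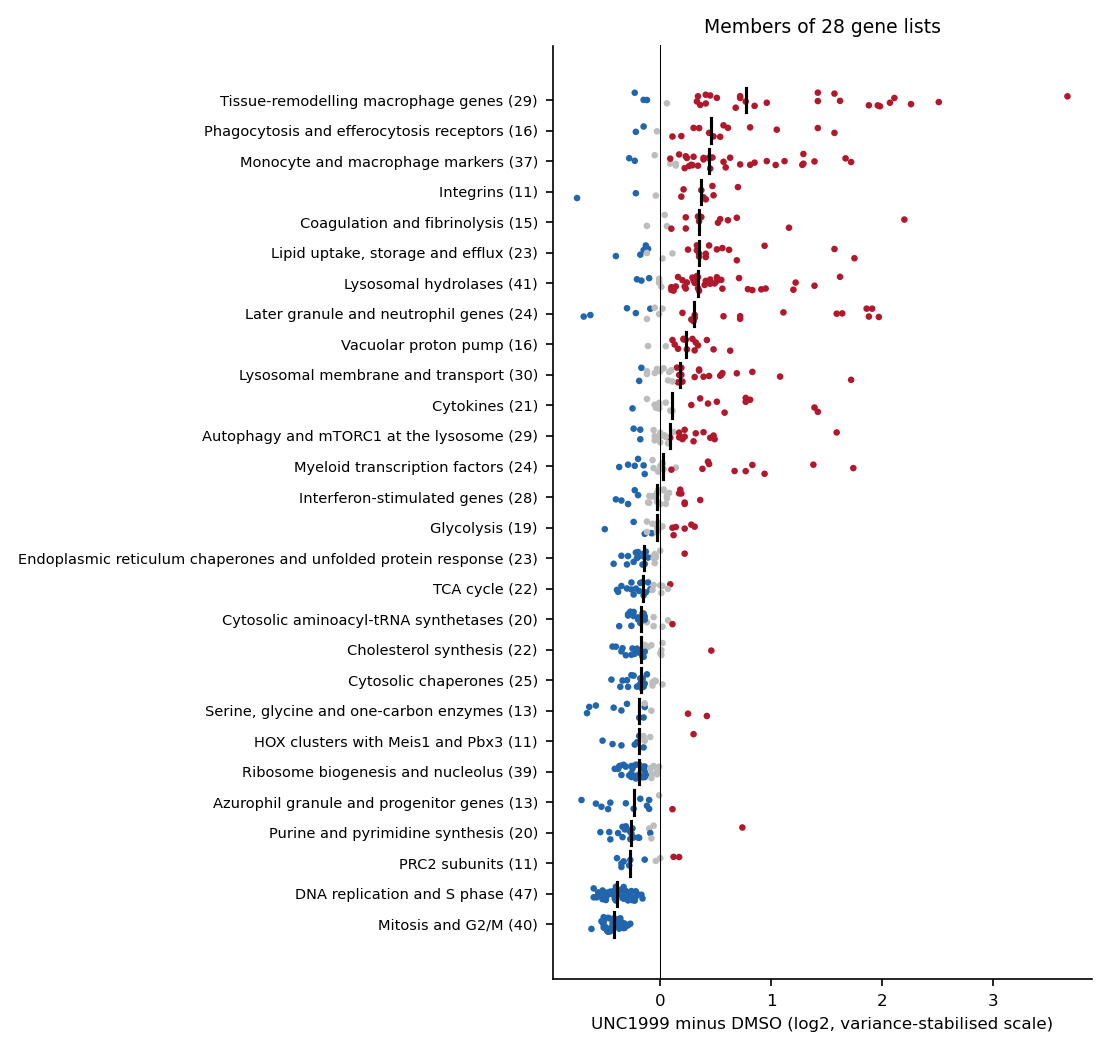
Log2 change with UNC1999 (variance-stabilised scale) of each tested member of 28 gene lists, with the number tested in parentheses; red members were called higher, blue lower and grey did not pass, and the black bar is the list's median. The medians run from 0.77 for the tissue-remodelling list to -0.42 for mitosis, beside -0.01 over all tested genes.

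Granule genes mark steps of granulocyte maturation, and those of early and later steps differed in their counts. Of 13 azurophil granule and progenitor genes 11 fell and 1 rose (median log2 change -0.24). Myeloperoxidase, Mpo, was at 66064, 70107 and 69003 with DMSO and 47010.5, 45681 and 44569.8 with UNC1999, a fall of 33.1% (log2 change -0.58 ± 0.03). The progenitor membrane protein Ms4a3 was at 1509, 1525 and 1455 with DMSO and 826, 822 and 837 with UNC1999, a fall of 44.6% (log2 change -0.71 ± 0.03). For both the groups were separated by far more than their spread. Neutrophil elastase, Elane, was the 1 that rose, 1.08-fold (log2 change 0.11 ± 0.03), and it did not pass without DMSO replicate 1 (limma adjusted p = 0.0522) or with quantile normalisation (limma adjusted p = 0.53). Of 24 genes of later granules and neutrophils 15 rose and 5 fell. S100a8, a subunit of calprotectin, was at 192, 154 and 173 with DMSO and 1113, 1119.7 and 1131 with UNC1999 and its partner S100a9 at 6.91, 22.3 and 15 with DMSO and 409, 406 and 416 with UNC1999. Mmp8, the neutrophil collagenase, rose 4.01-fold (log2 change 1.88 ± 0.03) and the acute-phase gene Saa3 3.28-fold (log2 change 1.64 ± 0.03). Other genes of late neutrophils were low: Camp at 0.987 to 2.23 with DMSO and 11 to 29.4 with UNC1999, and Ly6g at 10.9 to 16.7 and 8.58 to 23.5, both under the filter. Trem1, a receptor that amplifies neutrophil responses, fell by 47% (limma adjusted p from 4.84e-16 to 0.0115).

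Genes of cell division were lower. All 47 tested genes of DNA replication and S phase were called lower, with log2 changes from -0.6 to -0.16 and a median of -0.39. All 40 tested genes of mitosis and G2/M were called lower, from -0.62 to -0.27 with a median of -0.42. No member of either list fell 2-fold. Topoisomerase Top2a, which untangles chromosomes, was at 8568, 8092 and 8353 normalised counts in the DMSO libraries and 5574, 5739 and 5826 in the UNC1999 libraries (31.5% lower, log2 change -0.53 ± 0.03). The checkpoint kinase Bub1b was at 2442, 2345 and 2443 with DMSO and 1493, 1557 and 1429.8 with UNC1999 (38% lower) and the mitotic ubiquitin ligase partner Ube2c at 1206, 1281 and 1261 with DMSO and 779, 820.4 and 815 with UNC1999 (35.6% lower). The groups of these genes did not overlap, which was a condition for naming most genes here. The helicase subunit Mcm7 was at 3509, 3594 and 3747 with DMSO and 2343, 2375 and 2234 with UNC1999 (35.9% lower) and Mcm5 at 2943, 2899.6 and 2901 with DMSO and 1965, 1844 and 1823 with UNC1999 (35.6% lower). Cdc6 and Cdc45, which load and activate that helicase, changed by -0.57 ± 0.05 and -0.60 ± 0.05 on the log2 scale (limma adjusted p from 6.83e-10 to 1.64e-07).

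**Figure D5:**
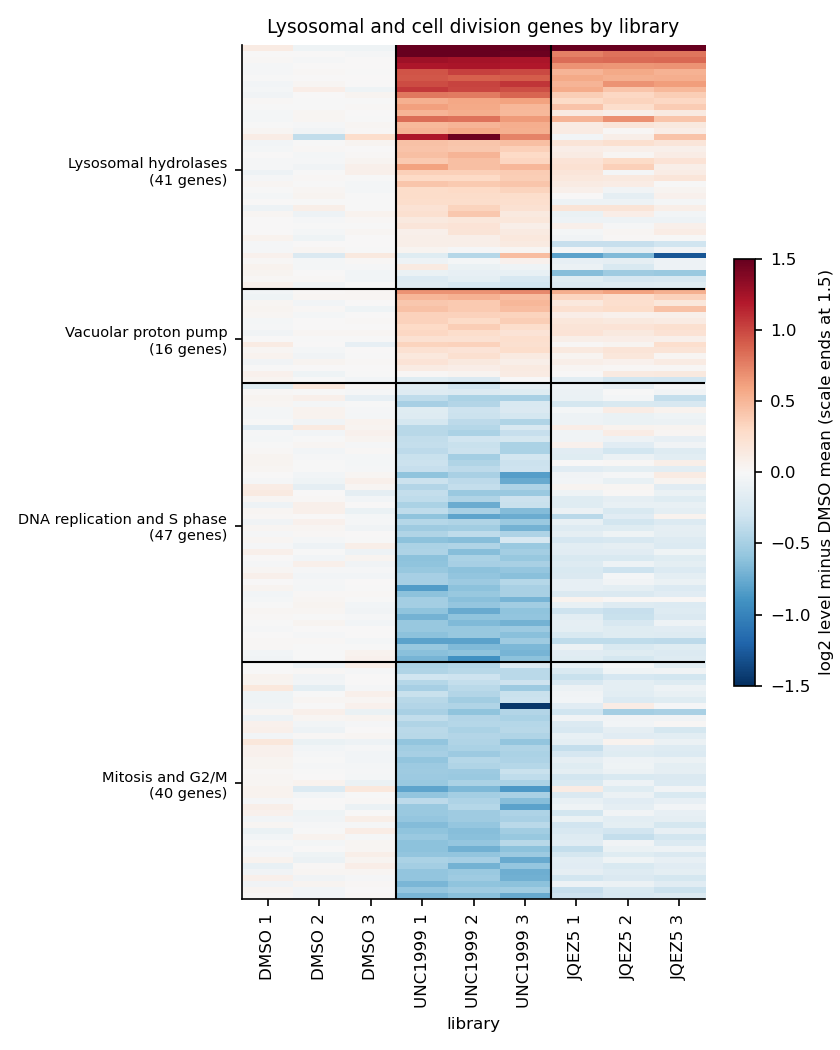
Log2 level of each gene in each library minus its mean over the DMSO libraries, for the lists of lysosomal hydrolases (41 genes), vacuolar proton pump (16), DNA replication and S phase (47) and mitosis and G2/M (40), sorted by change within a list; the colour scale ends at 1.5. The UNC1999 columns are red in most rows of the lysosomal lists and blue in most rows of the division lists, 1 row being far lower in replicate 3 than in the others, and the JQEZ5 columns are paler in most rows.

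Promoters of the division lists were read for elements known from cell cycle genes. CCAAT, bound by NF-Y, was present on either strand in 25 of 33 mitosis promoters (75.8%) and TTTGAA, the cell cycle homology element, in 24 of 33 (72.7%), against 37.9% and 18.1% of all promoters. CCAAT was not particular to mitosis genes. It was in 65.8% of S phase promoters, 84.2% of those of endoplasmic reticulum chaperones and 75% of those of class I antigen presentation. In ribosome biogenesis promoters its share was 37.1%. The E2F elements TTTCCCGC and TTTGGCGC were present in 6 of 38 and 7 of 38 S phase promoters (15.8% and 18.4%), against 1.11% and 0.537% of all, and in none of the mitosis promoters. All promoters include those of untested genes, and C followed by G was rarer in them (median observed over expected 0.389) than in the S phase list (0.875). The E2F contrasts may thus be too large. A match is a description of the letters and not evidence of binding. The 250 bases upstream of the start are shown for the mitosis genes with both elements and the S phase genes with an E2F element whose falls were largest. Capitals mark CCAAT or its reverse ATTGG and TTTGAA or TTCAAA in the first pair, and an E2F element or its reverse in the second.
Top2a (chr11:99024190-99024439, minus strand): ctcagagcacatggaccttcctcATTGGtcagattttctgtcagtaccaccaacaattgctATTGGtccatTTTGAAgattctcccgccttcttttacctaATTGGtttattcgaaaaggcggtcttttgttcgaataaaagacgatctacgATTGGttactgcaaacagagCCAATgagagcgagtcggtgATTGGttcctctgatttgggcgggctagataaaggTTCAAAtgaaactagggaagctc
Ube2c (chr2:164769679-164769928, plus strand): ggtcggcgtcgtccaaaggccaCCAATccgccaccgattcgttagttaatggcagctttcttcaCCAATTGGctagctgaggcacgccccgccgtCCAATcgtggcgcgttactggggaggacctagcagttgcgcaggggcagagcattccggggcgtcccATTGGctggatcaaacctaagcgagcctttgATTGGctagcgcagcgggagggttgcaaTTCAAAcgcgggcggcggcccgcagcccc
Mcm7 (chr5:138171884-138172133, minus strand): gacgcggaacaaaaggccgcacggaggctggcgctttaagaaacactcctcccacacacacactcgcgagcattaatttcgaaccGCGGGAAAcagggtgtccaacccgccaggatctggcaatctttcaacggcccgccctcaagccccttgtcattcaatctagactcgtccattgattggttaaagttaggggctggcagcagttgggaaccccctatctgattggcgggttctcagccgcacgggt
Mcm5 (chr8:75109259-75109508, plus strand): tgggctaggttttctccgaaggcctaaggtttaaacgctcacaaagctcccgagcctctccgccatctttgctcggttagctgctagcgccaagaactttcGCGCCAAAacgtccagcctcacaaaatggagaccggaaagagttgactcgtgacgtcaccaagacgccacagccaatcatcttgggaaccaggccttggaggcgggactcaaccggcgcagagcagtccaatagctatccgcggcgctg
The Top2a stretch holds 8 such matches, the last of them TTTGAA or its reverse, 23 bases before the start, and the Ube2c stretch 7, some of which overlap. In Mcm7 and Mcm5 the E2F match begins 165 and 149 bases before the start.

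Repair and checkpoint genes went partly with these. Of 25 homologous recombination and Fanconi genes 19 fell and none rose, with Brca1 down by 36.8% (log2 change -0.49 ± 0.06). Among 18 cell cycle inhibitors and G1 regulators 10 fell and 4 rose. The risers were Cdkn2a, a textbook PRC2 target that encodes p16 and p19 inhibitors, at 89.8, 114 and 96.9 with DMSO and 291, 275 and 332 with UNC1999, the inhibitor Cdkn1a (1.19-fold, log2 change 0.23 ± 0.04) and the D cyclins Ccnd1 (1.51-fold, log2 change 0.37 ± 0.06) and Ccnd2 (1.9-fold, log2 change 0.59 ± 0.06). Ccnd3, the third D cyclin, fell by 21.9% (log2 change -0.34 ± 0.04) and the pocket protein Rbl1 by 30.7% (log2 change -0.43 ± 0.04). Of 25 p53 pathway genes 9 rose and 8 fell, beside 23.9% and 24% of all tested genes. Trp53 itself fell by 20.1%, and the kinase Plk2 rose from 113, 129 and 118 with DMSO to 643, 623 and 693 with UNC1999 (limma adjusted p from 7.93e-13 to 0.000382).

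Biosynthetic genes were lower by small amounts in list after list. Of 39 ribosome biogenesis genes 29 fell and none rose, with the methyltransferase Nop2 down by 28.6% (log2 change -0.41 ± 0.05) and Dkc1, of the RNA pseudouridylation complex, by 26.8% (log2 change -0.37 ± 0.04). Purine and pyrimidine synthesis fell in 16 of 20. Its guanine nucleotide enzymes moved in opposite directions. Impdh2 was at 2030.1, 1708 and 1779.7 with DMSO and 1177, 1145 and 1275 with UNC1999. Its isozyme Impdh1 was at 897, 977 and 968 with DMSO and 1726, 1739 and 1729 with UNC1999. Serine, glycine and one-carbon enzymes fell in 9 of 13 and rose in 2. Psat1, of serine synthesis, was at 2490.0, 2462 and 2316 with DMSO and 1458, 1401 and 1498 with UNC1999 (40.1% lower), Phgdh fell by 37.6% (log2 change -0.64 ± 0.03) and mitochondrial Shmt2 by 35.7% (log2 change -0.58 ± 0.03). Cytosolic tRNA synthetases fell in 14 of 20 and cytosolic chaperones in 20 of 25, with the chaperonin Hspd1 down by 22.7% (log2 change -0.36 ± 0.03). Chaperones of the endoplasmic reticulum fell in 15 of 23 and proteasome subunits in 28 of 37 (limma adjusted p from 3.82e-11 to 2.51e-06 for the genes named).

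Several mitochondrial lists held more falls than rises: 15 of 22 of the citrate cycle, 45 of 77 oxidative phosphorylation subunits and 38 of 73 mitochondrial ribosomal proteins, with 1, 2 and 2 rises. Of 17 mitochondrial tRNA synthetases 6 fell and 11 did not pass, with a median log2 change of -0.02. Fumarase, Fh1, fell by 25.6% (log2 change -0.39 ± 0.03). Glycolysis was mixed, 6 up and 4 down of 19, beside 23.9% up and 24% down of all tested genes. The glucose transporter Slc2a1 rose 1.24-fold (log2 change 0.31 ± 0.03) and the lactate transporter Slc16a1 fell by 32.8% (log2 change -0.50 ± 0.04). Of the cytosolic ribosomal proteins, 54 of 78 did not pass, 18 fell and 6 rose, and with quantile normalisation 30 fell. The share that fell in the main fit was near the 24% of all tested genes called lower. The many pseudogenes of these proteins make the assignment of reads uncertain. Targets of the integrated stress response were mixed, 9 up and 6 down of 19. The cystine transporter Slc7a11 was at 172, 160.3 and 151 with DMSO and 773, 774 and 788 with UNC1999 and Atf5 rose 2.21-fold (log2 change 0.82 ± 0.06), while asparagine synthetase, Asns, fell by 17.2% and Ddit4, an mTORC1 inhibitor, by 35% (limma adjusted p from 7.62e-13 to 0.000134).

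The mitochondrial leucyl-tRNA synthetase Lars2 was among the largest falls, at 33703, 32147 and 38677 with DMSO and 21825, 15206 and 15444 with UNC1999. Lars2 and Mir6236, at 5497, 5748 and 5898 with DMSO and 3665, 2594 and 2574 with UNC1999, overlap sequence like that of ribosomal RNA and are known to collect its reads. Gm42418, Gm26917 and Gm15564, known for the same and chosen after their values were seen, fell by 47.2%, 36.9% and 42.1%. The part of residual ribosomal RNA in these falls was not tested. Large falls were also in Xirp1, an actin-binding protein, at 197, 229 and 227 with DMSO and 68.9, 69.5 and 63.8 with UNC1999, Sgip1, an endocytic adaptor (43.5%, log2 change -0.76 ± 0.04), the glycine receptor subunit Glra3 (61%, log2 change -0.74 ± 0.08), the lipopolysaccharide-binding protein Lbp (39.3%, log2 change -0.65 ± 0.03), the MYC antagonist Mxd1 (38.2%, log2 change -0.67 ± 0.03), Tsc22d1 (46%, log2 change -0.73 ± 0.04), the mucin Muc13 (41%, log2 change -0.69 ± 0.04) and Rufy4, at 63.2, 75.7 and 72.9 with DMSO and 9.19, 15.3 and 9.81 with UNC1999 (limma adjusted p from 4.00e-11 to 1.68e-05).

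Among the drug target's own genes, changes were modest. Of 11 PRC2 subunit genes 7 fell and 2 rose. Ezh2 was at 1748, 1687 and 1821 with DMSO and 1355, 1442 and 1192 with UNC1999 (24.1% lower), and Ezh1, the alternative catalytic subunit, was at 932, 876 and 928 with DMSO and 992, 1000.2 and 1035 with UNC1999, a rise of 1.11-fold (log2 change 0.12 ± 0.04). The groups of Ezh2 did not overlap, and the rise of Ezh1 did not pass without DMSO replicate 2 (limma adjusted p = 0.0841). The log2 change of the scaffold Eed was 0.00 ± 0.04 (limma adjusted p = 0.986). PRC1, which reads the PRC2 mark, had 6 rises and 5 falls among 20, near the 23.9% and 24% of all tested genes called higher and lower. Its largest rise was that of Bmi1, a factor of stem cell self-renewal, at 432, 429.8 and 429.7 with DMSO and 795, 773 and 747 with UNC1999 (1.79-fold, log2 change 0.62 ± 0.04). Outside PRC2, 6 of 19 genes that set or remove methyl groups on H3 lysine 4 or 27 rose and 6 fell, shares also near those of all tested genes; without DMSO replicate 1 or 3 the falls were 3. The lysine 4 methyltransferases Kmt2c and Kmt2d rose by 0.41 ± 0.04 and 0.37 ± 0.05 on the log2 scale, and the lysine 27 demethylase Kdm6b fell by 24.4% (log2 change -0.25 ± 0.06). The fall of Kdm6a, 11.7%, did not pass without DMSO replicate 1 or 3 or UNC1999 replicate 2 or 3 (limma adjusted p from 0.0635 to 0.161). The DNA methyltransferase Dnmt3a rose 1.72-fold (log2 change 0.55 ± 0.05) and its partner in replication, Uhrf1, fell by 27.4% (log2 change -0.43 ± 0.03; limma adjusted p from 1.34e-08 to 0.04).

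More HOX and self-renewal genes fell than rose. Of 11 HOX cluster genes and cofactors 7 fell, and 3 more were under the filter. Hoxa9, on chromosome 6 at 52223100 to 52231089 on the minus strand, was at 1887, 1952 and 1808 with DMSO and 1212, 1280.1 and 1246 with UNC1999 (33.8% lower), and its cofactor Meis1 at 495, 488 and 446 with DMSO and 313, 323 and 367 with UNC1999 (29.8% lower). Pbx3, a further cofactor, was the 1 that rose, from 77, 70.2 and 60.0 with DMSO to 100.1, 85.8 and 172 with UNC1999 (limma adjusted p = 0.0139, or 0.0594 without DMSO replicate 3). Of 15 self-renewal genes 8 fell, with Sox4 at 211, 234 and 247 with DMSO and 138, 100.1 and 146 with UNC1999 and the surface receptor Cd93 up 1.5-fold (log2 change 0.54 ± 0.04), the 1 that rose. Myc, at 2857, 3068 and 2921 with DMSO and 2958, 2982 and 2817 with UNC1999, did not pass (log2 change -0.01 ± 0.03, limma adjusted p = 0.778), and Myb fell by 10.1% (limma adjusted p from 4.89e-09 to 0.0033).

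Transcription factors of myeloid cells rose in 10 of 24 cases and fell in 6. The share of falls was near the 24% of all tested genes called lower, and 23.9% of all were called higher. Bhlhe41, a repressor expressed in tissue macrophages, was at 868, 862 and 841 with DMSO and 3367, 3474 and 3271 with UNC1999 (3.93-fold, log2 change 1.74 ± 0.03), and Maf, which limits macrophage self-renewal, at 725, 659 and 701 with DMSO and 2301, 2326 and 1879.8 with UNC1999 (3.12-fold). Id2 rose 2.12-fold (log2 change 0.94 ± 0.04) and Klf4 1.74-fold (log2 change 0.43 ± 0.06). Factors that set the myeloid lineage itself moved little: Cebpa fell by 16.9% and Irf8 by 10.1%, while Spi1 (log2 change 0.02 ± 0.05, limma adjusted p = 0.729) and Cebpb (0.00 ± 0.06, limma adjusted p = 0.974) did not pass. The called genes named passed with a limma adjusted p from 1.13e-15 to 0.00597.

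Markers of other cell types are given for each list with its summed level in normalised counts, and their part in the changes above was not tested. The 3 erythroid markers in the table were all under the filter, with a summed level of 68 to 89.1 with DMSO and 67.4 to 72.3 with UNC1999. Of 12 platelet markers 5 were tested, 4 of which fell and 1, Vwf, rose. Their summed level was 4050.0 to 4266 with DMSO and 4762 to 4848 with UNC1999, with Pf4 at 25 to 39.8 and Gp9 at 6.13 to 21.2 over the 6 libraries. Of 8 stromal and endothelial markers 3 were tested, of which 1, Vwf, rose and 2 fell (summed level 2634 to 2837 with DMSO and 3678 to 3773 with UNC1999), and the receptors Pdgfra and Kdr were at 0 to 10.1. Of 7 T and NK cell markers 2 were tested and 1, Il7r, rose (summed level 6442 to 6792 with DMSO and 7403 to 7935 with UNC1999), while the NK receptor Klrb1c was at 2.45 to 32.3. Il7r was low with DMSO and 5 markers were under the filter. Most of that sum thus came from the other tested marker, which did not pass (log2 change 0.05). Osteoclast markers rose in 4 of 7 tested and fell in 1, Itgb3 (summed level 3946 to 4107 with DMSO and 4486 to 4622 with UNC1999). Among them the acid phosphatase Acp5 was at 61.2, 43.4 and 68 with DMSO and 132, 158 and 95.6 with UNC1999, and Mmp9 rose 3.36-fold (log2 change 0.72 ± 0.08). Of 3 B cell markers tested 1 rose and 2 fell, Cd79b by 54.9% (log2 change -0.54 ± 0.07), and neither of the 2 tested mast cell, basophil and eosinophil markers passed (limma adjusted p from 1.13e-15 to 0.000361 for the called genes named).

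JQEZ5, another inhibitor of EZH2, matched UNC1999 in dose and duration and shared its DMSO libraries, so the 2 compounds were tested directly against each other over all 10694 genes. UNC1999 gave higher levels for 2003 genes (18.7%) and lower levels for 1889 (17.7%). Gpnmb was at 32826, 31997 and 32588 with JQEZ5, between its DMSO and UNC1999 levels, a log2 difference of 1.08 ± 0.02 (limma adjusted p = 9.48e-14). Fn1 was at 849, 817 and 813, close to its DMSO level (1.88 ± 0.04, limma adjusted p = 8.26e-14). Of the lysosomal hydrolases 34 of 41 were higher with UNC1999 and none lower, and of the pump subunits 8 of 16. Monocyte and macrophage markers were higher with UNC1999 in 30 of 37 and lower in 2, and tissue-remodelling genes in 23 and 2 of 29. S phase genes were lower with UNC1999 in 44 of 47 cases, mitosis genes in 38 of 40 and ribosome biogenesis genes in 34 of 39, with none higher. For Mpo the JQEZ5 libraries, at 71353, 69143 and 71107, were near the DMSO range (-0.62 ± 0.03, limma adjusted p = 5.30e-10).

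Other genes differed less or did not pass between the compounds. For Cxcr2, at 211, 249 and 225 with JQEZ5, the log2 difference was -0.18 ± 0.05 (limma adjusted p = 0.0116). For Ccl4, at 1076, 1089 and 1063 with JQEZ5, it was -0.01 ± 0.05 (95% interval -0.12 to 0.10, limma adjusted p = 0.897). For Bmi1 it was 0.06 ± 0.04 (95% interval -0.04 to 0.15, limma adjusted p = 0.321), for Atf5 0.01 ± 0.06 (95% interval -0.11 to 0.13, limma adjusted p = 0.941) and for Rufy4 0.00 ± 0.07 (95% interval -0.16 to 0.15, limma adjusted p = 0.981). A p above the threshold does not show that the compounds acted alike on these 4 genes.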

How the data were processed

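The authors deposited 1 table of RNA-seq levels for the inhibitor experiment, with 9 libraries of 3 DMSO, 3 UNC1999 and 3 JQEZ5; the other libraries of the series were not used here. The deposited values are log2 variance-stabilised expression, with a lowest value of 6.88278 that stands for 0 reads. The submitters' processing notes name STAR 2.4.2, Salmon 0.1.19, DESeq2 1.38.2 and the builds mm10 and GRCm38.p4, with no role or order; per the labels' protocols each library was built with 1 of 2 kits; the kit of each is not given in the sources used here. Whether counting used strand is not given in the sources used here either, so overlapping genes may share reads.

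Inverting the transformation gave normalised counts and, at a tolerance of 0.05, whole reads for 100% of values. Genes that exceeded the lowest value by 1 log2 unit or more (59.0 normalised counts) in 3 of the 9 libraries were tested with limma 3.58.1 in R 4.3.3, with 1 mean per group, a trended prior and Benjamini-Hochberg adjustment over 10694 genes; calls had an adjusted p under 0.05. The script was tested on simulated data before use. Fold changes are ratios of mean normalised counts. The 64 gene lists and the comparison itself were chosen with earlier results of these data known. Genes named are the 15 largest called changes each way with groups that do not overlap, up to 4 such members of each list each way, and anchor genes set for each list whatever their change; predicted genes were left out of the first 2. Gene positions are from GENCODE M21 (373 of 376 named genes matched) and promoters from RefSeq on GRCm38.p6. As deposited, 18 gene names had been turned into dates and were not assigned to genes. Alternatives were other filters, scalings, priors, scales, a replicate block and leaving out each library. Some genes of these lists are not reported here.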

Additional observations from a re-analysis of the deposited data

How the results depend on the processing

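The counts of genes called higher and lower stayed within 1.5 times of 2552 and 2566 under each alternative but a minimum difference of 1 log2 unit, which left 93 higher and 4 lower; with that minimum the genes past 2-fold were 93 and 3, and those between UNC1999 and JQEZ5 were 10 higher and 1 lower. Genes past 2-fold were 449 higher and 133 lower with no filter on low values and 155 and 5 with the filter at 2 log2 units, which tests fewer low genes. Leaving out 1 DMSO or UNC1999 library gave 2217 to 2503 higher and 2145 to 2579 lower and 265 to 267 and 26 to 27 past 2-fold. Leaving out any of the 9 libraries gave 1643 to 1961 higher and 1487 to 1866 lower than with JQEZ5. Leaving out 1 JQEZ5 library, an alternative chosen after seeing the data, gave 2469 to 2588 higher and 2456 to 2601 lower than with DMSO. Quantile normalisation gave 2274 higher and 2953 lower and moved the median change of all genes from -0.011 to -0.029.

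The filter at 2 log2 units, which tests fewer members, left 4 falls in the HOX list, 6 rises in cytokines, 5 in coagulation, 2 in osteoclast markers and 1 fall in B cell markers. Of the 376 named genes none reversed under the alternatives of filter, scaling, prior, scale, block and left-out libraries, though with the filter at 2 log2 units only 336 were tested, and no value per gene was computed with the minimum of 1 log2 unit; 9 to 18 of 376 lost their call when a DMSO or UNC1999 library was left out. Deviations of same-numbered DMSO and UNC1999 libraries from their group means correlated at -0.043, 0.001 and -0.072, and those of differently numbered libraries at -0.05 to 0.099. Such values cannot show whether the cultures were paired. With the replicate block 2494 genes were called higher and 2534 lower. Depth limits the low genes most: with 59.0 normalised counts needed in 3 libraries, 3484 of 14178 genes were not tested.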

Other observations

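Some of the large rises were neighbours in the genome. Only the next placed tested gene on either side, at most 100 kb away, was counted as a neighbour. Of 258 placed genes that rose at least 2-fold, 35 (13.6%) had another such gene as a neighbour, and these 35 fell into 14 runs. Among the other placed genes 268 (2.66%) had such a neighbour. The longest run, on chromosome 7 at 3731630 to 3915503, held 8 entries, all up 2.04-fold to 2.30-fold. They were the immunoglobulin-like receptor genes Pira2 and Lilra6 and, for the rest, predicted genes such as Gm15922. Near-identical copies of such receptors make the split of reads uncertain, so the 8 may not be separate rises among the 35. Other runs were the calcium-binding S100a6, S100a8 and S100a9, the protease inhibitors Serpinb2 and Serpinb8, the proteases Ctsk and Ctss, the collagenase Mmp13 with the elastase Mmp12, and Sgce with Peg10, a pair of imprinted genes. These runs were picked after their values were seen.

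Interferon-stimulated genes did not move one way: of 28 tested, 6 rose and 5 fell, no larger shares than over all tested genes, with a median log2 change of -0.03. The restriction factor Bst2 rose 1.34-fold, and the guanylate-binding protein Gbp3 fell by 34.2%. Class I antigen presentation was also even, 6 up and 6 down of 23, while Cd274, which encodes PD-L1, rose 1.93-fold and Cd74, the invariant chain of class II, fell by 36.3%. Of 27 genes of the BCL2 family and caspases 6 rose and 8 fell, near the 23.9% and 24% of all tested genes; the survival factor Mcl1 (1.52-fold) and the death factor Bcl2l11 (1.61-fold) rose together. Of 25 antioxidant genes 13 rose and 9 fell, and the superoxide dismutases parted, with mitochondrial Sod2 up 1.69-fold and cytosolic Sod1 down by 31%. Of 10 NADPH oxidase genes 6 rose, the catalytic pair Cybb and Cyba by 1.39-fold and 1.41-fold, and 2 fell, the cytosolic subunit Ncf1 by 17.6%. Limma adjusted p for these named genes ran from 1.05e-11 to 7.35e-05.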
